A study of Mus musculus with 6 samples.

Results

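A group of 10 zinc-handling genes, chosen by symbol, was followed in fully grown mouse oocytes: the importers Slc39a6, Slc39a10, Slc39a8 and Slc39a14, the exporters Slc30a1, Slc30a5 and Slc30a9, the metallothioneins Mt1 and Mt2, and the zinc-sensing transcription factor Mtf1. They were all present among the 17577 genes listed for each library. SLC39 (ZIP) proteins bring zinc into the cytosol from outside the cell or from organelles, and SLC30 (ZnT) proteins move it the other way. Metallothioneins are small cysteine-rich proteins that bind zinc and copper in the cytosol, and MTF1 switches on their genes when cytosolic zinc rises by binding short DNA motifs called metal response elements. In the mouse, oocytes take up zinc as they resume meiosis, a step for which ZIP6 and ZIP10 are needed, and the egg expels zinc at fertilization.

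The study asked what a truncating mutation of Bnc1, which encodes the zinc finger protein basonuclin 1, does to the ovary. The RNA used here came from germinal vesicle oocytes, which are arrested before the first meiotic division, of 12-week-old C57BL/6 J mice after gonadotropin stimulation. Bnc1tr/tr mice carry the frameshift allele on both chromosomes and in every cell of the body, so the cells around the oocyte carry it too, and WT mice carry none. There were 3 libraries per genotype, made from oligo(dT)-primed and PCR-amplified complementary DNA by a single-cell method (Smart-seq2), and nothing in the labels ties a library to an animal, so the p-values below measure the spread between these libraries, which may be partly technical.

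Levels are given in FPKM, sequenced fragments scaled to transcript length and library depth. Depth, estimated from the step size of low FPKM values, lay between 13.3 and 21.5 mega-fragments per library. The upper value, for WT replicate 3, is the least certain. Its step signal was 4.16, and 3.36 with transcript lengths shuffled, whereas the signal of the other libraries lay between 6.34 and 7.46. Differences are log2 fold changes of FPKM + 1, Bnc1tr/tr over WT, tested with limma and Benjamini-Hochberg adjustment over the 10560 genes whose 6 libraries averaged 1 FPKM or more. A call needed an adjusted p below 0.05 together with a log2 fold change beyond 0.5 in either direction. Bnc1 itself was at 9.04, 6.51 and 5.83 FPKM in the Bnc1tr/tr libraries and 13.17, 12.54 and 16.23 FPKM in the WT libraries (log2 fold change -0.89, limma adjusted p = 0.0090), so its transcript was lower in every library labelled Bnc1tr/tr. All 12 oocyte markers were above 0 in every library. Their summed FPKM was lower in every Bnc1tr/tr library (14075 to 15601) than in any WT library (15937 to 17739). Dppa3, the largest single part of this sum, overlapped between genotypes (5481 to 7146 FPKM in Bnc1tr/tr and 5462 to 10706 in WT). Of the 12 markers, 2 were called lower and none higher. Zp2, Zp3 and Nlrp5 were lower in every Bnc1tr/tr library than in any WT library, and Bmp15, Oosp1 and Kit were higher. Across every tested gene the fold changes had a median of 0.15 (log2), which lay between -0.10 and 0.17 under other scalings, so the values below are best read against that shift. Higher calls took 24.1% of the tested genes and lower calls 7.68%. Of the calls 75.8% were higher, a share that was 50.8% with upper-quartile scaling, 59.3% with median-ratio scaling and 46.6% with quantile normalization.

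Mt1, Mt2 and Slc30a1 are known targets of MTF1, so upstream bases that hold the letters of a metal response element are shown for them and for Mt4 of the same cluster, from the RefSeq promoter windows of GRCm38.p6, 5′ to 3′ on the plus strand. Capitals mark the letters TGCACNC or TGCGCNC on either strand. The upstream part is shown as far as the most upstream annotated transcript start, and where an element lies beyond that start (Mt1 and Slc30a1) a stretch of 30 bases around it is given instead.
Mt2, chr8:94172368-94172617: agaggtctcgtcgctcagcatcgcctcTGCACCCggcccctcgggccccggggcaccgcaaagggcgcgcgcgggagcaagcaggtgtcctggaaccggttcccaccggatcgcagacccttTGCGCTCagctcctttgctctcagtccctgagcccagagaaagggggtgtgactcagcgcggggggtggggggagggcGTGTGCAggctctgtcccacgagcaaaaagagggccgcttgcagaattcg
Mt1, chr8:94179054-94179083: gcggtcccgctgTGCACACtggcgctccag
Mt4, chr8:94136954-94137196: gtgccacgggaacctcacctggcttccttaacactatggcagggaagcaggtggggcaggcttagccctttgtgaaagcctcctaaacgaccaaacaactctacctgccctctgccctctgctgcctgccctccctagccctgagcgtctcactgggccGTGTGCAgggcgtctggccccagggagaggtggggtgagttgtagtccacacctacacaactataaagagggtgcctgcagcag
Slc30a1, chr1:191906726-191906755: aacgggggttccGAGTGCAaagcaaagttt

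Each window runs from 250 bases before to 50 after a RefSeq start site, and windows of 8 of the 10 members are described. Slc39a14 had no entry, and Slc39a6 lies on chromosome 18, whose windows were left out of the search by gene. The Mt2 window held 4 matches, beginning at -223, -128, -50 and 5 relative to the start site. The Mt1 window held 3, at -23, 3 and 21, and the Slc30a1 window held 2, at -43 and 31. Slc30a5 had 1 match, at -48, and Mt4 had 1, at -91. No match was found in the windows of Slc39a10, Slc30a9 or Mtf1, and 1 of the windows of Slc39a8 held a match at -19. None of the matches in these member windows overlapped another. Among 32851 windows of all genes, 25.7% held at least 1 match, 6.14% at least 2, 1.31% at least 3 and 0.295% at least 4, so the Mt2 and Mt1 windows were among the richest. Other annotated transcripts begin elsewhere: GENCODE places Mt1 starts 122 and 152 bases downstream of the start site used here and Mt2 starts 46 and 242 bases downstream. A match describes the letters in a window and is not evidence of binding.

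The metallothioneins had the highest fold changes among the members. Mt1 (chr8:94178883-94180327) was at 96.65, 140.5 and 94.63 FPKM in the Bnc1tr/tr libraries and at 6.09, 4.66 and 6.08 FPKM in the WT libraries. The lowest Bnc1tr/tr value was 15.5 times the highest WT value. The means were 110.6 ± 25.9 and 5.61 ± 0.823 FPKM (SD, n = 3 each), a ratio of 19.7, with a log2 fold change of 4.06 ± 0.21 (SE) and a limma adjusted p of 3.1e-06. By its mean level Mt1 stood at percentile 64.8 of all listed genes in WT oocytes and at percentile 93.2 in Bnc1tr/tr oocytes.

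Mt2, the neighbouring gene (chr8:94172618-94173567) whose protein binds zinc in the same way, was at 47.15, 87.82 and 71.16 FPKM in the Bnc1tr/tr libraries. In the WT libraries it was at 0, 1.38 and 0.27 FPKM, so the genotypes did not overlap here either. For this short transcript 3 fragments were worth between 0.464 and 0.749 FPKM, so WT replicates 1 and 3 were under that floor and a linear ratio would have little meaning. The log2 fold change was 5.55 ± 0.34 (SE), with a limma adjusted p of 7.4e-06. Mt2 passed the filter on low values through its Bnc1tr/tr level, since its WT mean was 0.550 ± 0.731 FPKM (SD, n = 3). An antisense gene, Gm45774, shares 58.1% of the 31-base words of Mt2. Libraries of this kind do not mark strand, so reads of both cannot be told apart.

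Of the other metallothioneins of the same cluster, Mt4 was higher and Mt3 was barely listed. Mt4, known from stratified epithelia, was at 431.62, 353.92 and 377.93 FPKM in the Bnc1tr/tr libraries and at 24.09, 18.52 and 27.2 FPKM in the WT libraries. Its log2 fold change was 4.01 ± 0.19 (SE; limma adjusted p = 2.4e-06), and by FPKM it was the most abundant of the family in every library. The longest coding transcript is 398 bases for Mt4 and 1085 for Mt1, so this rank leans on the scaling to length. Mt3, known from the brain, was listed at 0 in each library except WT replicate 2, at 0.36 FPKM. This is under the 0.542 FPKM that 3 fragments were worth in that library. Mt1, Mt2 and Mt4 together made up 0.00424% ± 0.000553 of all FPKM in WT and 0.0831% ± 0.00426 in Bnc1tr/tr oocytes (SD, n = 3 per genotype). Within the pair, Mt1 was between 1.33 and 2.05 times Mt2 in the Bnc1tr/tr libraries.

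None of the tested genes beside the cluster was called. The cluster spans 43.1 kb of chromosome 8 (94137204 to 94180327), and 4 other listed genes lie within 120 kb on either side. All 4 were tested, and 0 were called by limma in either direction, against 31.8% of all tested genes. At an unadjusted p below 0.05 none was higher and 2, Nudt21 and Nup93, were lower. Nudt21 was at 16.3 FPKM in Bnc1tr/tr and 26.0 FPKM in WT oocytes on average (log2 fold change -0.66, limma adjusted p = 0.063). Nup93, a nuclear pore protein, was at 28.3 FPKM in Bnc1tr/tr and 43.4 FPKM in WT oocytes on average (log2 fold change -0.57, limma adjusted p = 0.11).

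**Figure D1:**
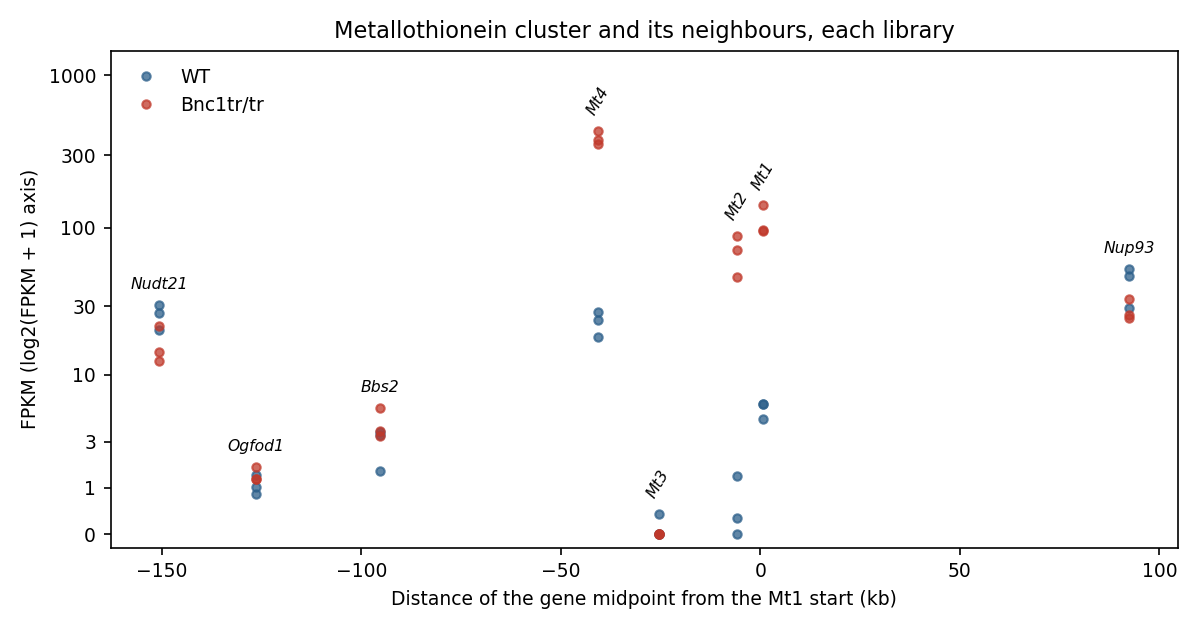
FPKM of each library (y axis, log2(FPKM + 1) scale) for the metallothionein genes and the 4 listed genes within 120 kb, placed by the distance of the gene's midpoint from the Mt1 start (x axis, kb). Red points are Bnc1tr/tr libraries and blue points WT libraries (n = 3 each), and the colours separate widely at Mt4, Mt2 and Mt1 and mix or lie close at the neighbours.

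Among the exporters, Slc30a1 and Slc30a5 were higher and Slc30a9 was not called. Slc30a1 (chr1:191906697-191913248), which encodes the zinc exporter of the plasma membrane and is a known target of MTF1, was at 6.08, 4.59 and 5.32 FPKM in the Bnc1tr/tr libraries and at 1.8, 2.02 and 2.21 FPKM in the WT libraries. The lowest mutant value was 2.08 times the highest WT value. On the log2 scale the difference was 1.07 ± 0.17 (SE; limma adjusted p = 0.0015), and the means differed by a ratio of 2.65.

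Slc30a5 (chr13:100802645-100833480), whose protein loads zinc into the secretory pathway, was at 17.69, 17.08 and 20.97 FPKM in the Bnc1tr/tr libraries and at 11.23, 11.41 and 11.7 FPKM in the WT libraries. The groups did not overlap and the WT values lay within a narrow range. This gave a log2 fold change of 0.65 ± 0.16 (SE; limma adjusted p = 0.014). This call depended on the scaling: with upper-quartile scaling the log2 fold change was 0.39 (limma adjusted p = 0.11), and without WT replicate 2 or without Bnc1tr/tr replicate 3 the adjusted p was 0.058 and 0.056.

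Slc30a9, a member of the family found at mitochondria, was at 1.59, 0.81 and 1.63 FPKM in the Bnc1tr/tr libraries and at 0.73, 1.28 and 2.1 FPKM in the WT libraries. The genotypes overlapped throughout. Its log2 fold change was 0.00, with a 95% interval from -0.56 to 0.57 (limma adjusted p = 0.99), and its sign turned with upper-quartile, median-ratio and quantile scaling.

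Of the importers, Slc39a14 was higher and the abundant pair was not called. Slc39a6 and Slc39a10 were by far the main importer transcripts, with 91.3% ± 2.18 of the FPKM of the 14 listed Slc39a genes in WT and 85.7% ± 2.59 in Bnc1tr/tr oocytes (SD, n = 3 per genotype), and neither was called. Slc39a10 was at 66.74, 58.42 and 77.05 FPKM in the Bnc1tr/tr libraries and at 64.45, 56.92 and 56.81 FPKM in the WT libraries. The ranges overlapped, and the log2 fold change was 0.17 with a 95% interval from -0.21 to 0.56 (limma adjusted p = 0.48).

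Slc39a6, whose product pairs with that of Slc39a10 at the plasma membrane, was at 44.82, 40.29 and 37.39 FPKM in the Bnc1tr/tr libraries and at 38.47, 35.76 and 35.15 FPKM in the WT libraries. These ranges overlapped as well. The log2 fold change was 0.16, with a 95% interval from -0.20 to 0.52 (limma adjusted p = 0.49). For both genes the sign turned with upper-quartile scaling (-0.10 for Slc39a10 and -0.11 for Slc39a6) and with median-ratio scaling, and both fold changes lay close to the median of all tested genes.

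Slc39a14 (chr14:70303467-70351452), which encodes an importer of zinc, iron and manganese, was low in both genotypes but separated them. It was at 2.25, 3.15 and 2.37 FPKM in the Bnc1tr/tr libraries and at 0.16, 0.18 and 0.01 FPKM in the WT libraries. The highest WT value was above the 0.030 to 0.048 FPKM that 3 fragments were worth, and the lowest was below it. The log2 fold change was 1.68 ± 0.17 (SE; limma adjusted p = 0.00014). Slc39a14 passed the filter on low values only through its Bnc1tr/tr level, and it was under the filter and not tested without Bnc1tr/tr replicate 2. With a pseudocount of 0.1 in place of 1 the log2 fold change was 3.73, since the larger pseudocount compresses low levels.

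Slc39a8, a close relative of Slc39a14, was at 0, 0 and 0.08 FPKM in the Bnc1tr/tr libraries and at 0.05, 0 and 0.18 FPKM in the WT libraries. It was under the filter and not tested, and 4 of its 6 values were under the 0.042 to 0.068 FPKM that 3 fragments were worth in these libraries. The exceptions were Bnc1tr/tr replicate 3 and WT replicate 3, and the genotypes overlapped.

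Mtf1 (chr4:124802549-124849800), the regulator itself, was at 14.72, 14.8 and 13.65 FPKM in the Bnc1tr/tr libraries and at 8.62, 9.47 and 8.66 FPKM in the WT libraries. The groups did not overlap, and the spread within each was small: the coefficient of variation was 4.46% in Bnc1tr/tr and 5.38% in WT. The log2 fold change was 0.63 ± 0.15 (SE; limma adjusted p = 0.013). With upper-quartile scaling it was 0.38 (limma adjusted p = 0.088) and with quantile normalization 0.35 (limma adjusted p = 0.10), so this call also rested on the scaling.

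**Figure D2:**
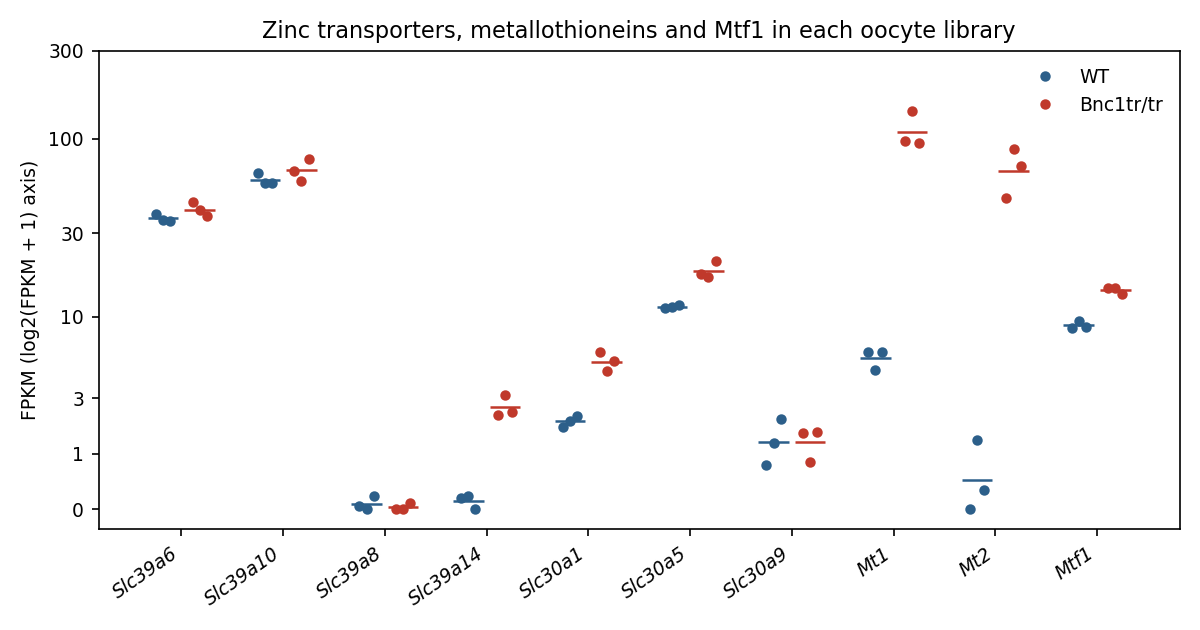
FPKM of the 10 members in each library (y axis, log2(FPKM + 1) scale), with WT libraries in blue, Bnc1tr/tr libraries in red (n = 3 each) and a line at the mean of the log2(FPKM + 1) values. Mt1, Mt2, Slc39a14, Slc30a1, Slc30a5 and Mtf1 separate by genotype, whereas Slc39a6, Slc39a10, Slc39a8 and Slc30a9 overlap.

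In all, 9 members were tested by limma, of which 6 were called higher, against 24.1% of all tested genes, and 0 lower, against 7.68%. No member was lower at an unadjusted p below 0.05 either, nor with limma's trend and robust settings. In those 6 every Bnc1tr/tr library was above every WT library, an order seen in 32.7% of all tested genes. The tested members had a median of 0.65 (log2 fold change), beside 0.15 for all tested genes. Mt2 and Slc39a14 passed the filter through the genotype in which they were high, and the genes were chosen with earlier results of these data known, so these counts describe the list and are not offered as support for it.

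**Figure D3:**
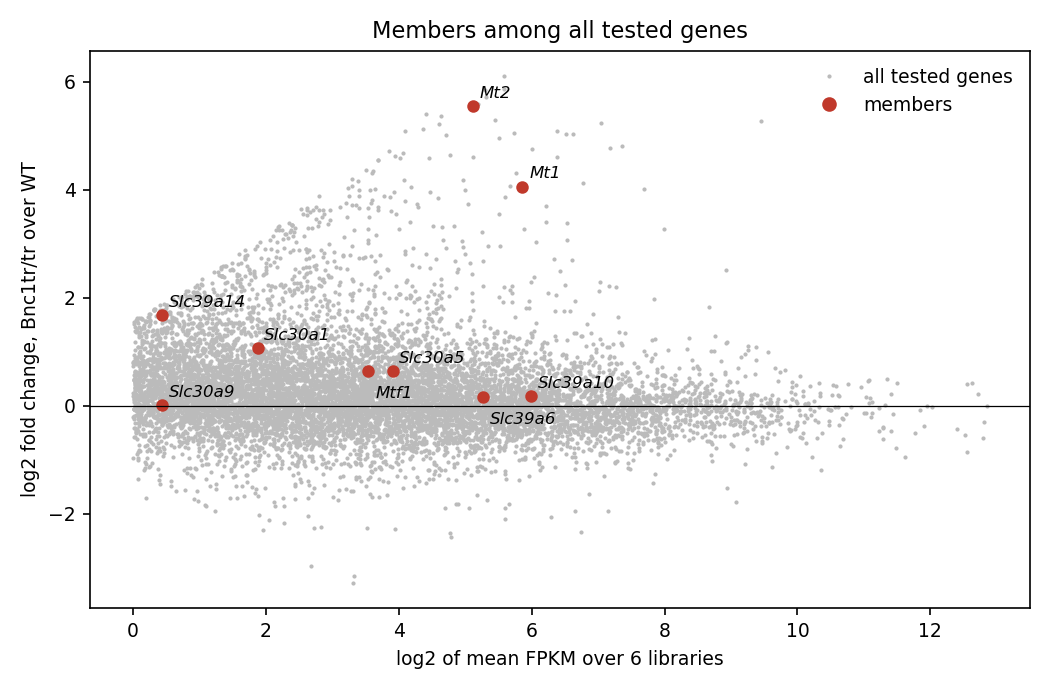
Log2 fold change, Bnc1tr/tr over WT (y axis), against the log2 of the mean FPKM over the 6 libraries (x axis) for the 10560 tested genes (grey) and the 9 tested members (red). Mt1 and Mt2 lie near the upper edge of the cloud, while Slc39a6 and Slc39a10 lie close to the 0 line among other abundant genes.

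The order of the members by level changed between genotypes. In WT oocytes Slc39a10 was highest at 59.4 FPKM on average, followed by Slc39a6 at 36.5, Slc30a5 at 11.4, Mtf1 at 8.92, Mt1 at 5.61 and Slc30a1 at 2.01 FPKM, and no neighbours among these overlapped. From Slc30a1 down each gene overlapped the next, in the order Slc30a9, Mt2, Slc39a14 and Slc39a8. In Bnc1tr/tr oocytes Mt1 was highest, and Mt2 at 68.7 and Slc39a10 at 67.4 FPKM followed with overlapping libraries. The remaining members followed from Slc39a6 at 40.8 FPKM down to Slc39a14 at 2.59, Slc30a9 at 1.34 and Slc39a8 at 0.027 FPKM.

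A further 34 genes of zinc handling were listed, of which 21 were tested. By limma 9 were called higher, against 24.1% of all tested genes, and 0 lower, against 7.68%. None was lower at an unadjusted p below 0.05 or with the trend and robust settings, and the median was 0.40 (log2 fold change). The count of higher calls was 5 without Bnc1tr/tr replicate 1 and 5 without Bnc1tr/tr replicate 2, and without WT replicate 3 Slc30a3 was called lower. Among importers, Slc39a4, known for dietary zinc uptake, was at 1.66, 1.38 and 2.71 FPKM in the Bnc1tr/tr libraries and at 0.17, 0.33 and 0.32 FPKM in the WT libraries (log2 fold change 1.17, limma adjusted p = 0.0023). Slc39a9, an importer of the Golgi and plasma membrane, had means of 7.56 and 3.70 FPKM (log2 fold change 0.90, limma adjusted p = 0.025), a call lost in 6 of 18 alternatives. Over the whole importer family 7 of 14 genes were tested and 3 were called higher, against 24.1% of all tested genes.

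Among exporters, Slc30a2, which fills zinc vesicles, was at 7, 4.72 and 5.11 FPKM in the Bnc1tr/tr libraries and at 2.82, 1.81 and 1.24 FPKM in the WT libraries (log2 fold change 1.18, limma adjusted p = 0.0049). Slc30a7, which acts with the secretory pathway, had means of 2.49 and 1.03 FPKM (log2 fold change 0.75, limma adjusted p = 0.035), a call lost in 10 of 17 alternatives. Slc30a3, known from synaptic vesicles, was the most abundant exporter but spread widely, between 33.16 and 66.95 FPKM in Bnc1tr/tr and between 25.91 and 101.75 FPKM in WT, and was not called. Over the whole exporter family 8 of 10 genes were tested and 4 were called higher, against 24.1% of all tested genes. The summed exporter FPKM was 90.1 ± 17.3 in Bnc1tr/tr and 96.0 ± 37.4 in WT (SD, n = 3 each). Slc30a3 was the largest part of this sum (48.4 and 68.0 FPKM on average), so the sum says little about the other exporters. The summed importer FPKM was 126.2 ± 6.31 in Bnc1tr/tr and 105.0 ± 7.16 in WT (SD, n = 3 each).

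Of the listed MTF1 targets outside these families, Gclc, the catalytic subunit of the enzyme that starts glutathione synthesis, was at 4.65, 3.23 and 4.06 FPKM in the Bnc1tr/tr libraries and at 1.12, 2.04 and 1.15 FPKM in the WT libraries (log2 fold change 1.04, limma adjusted p = 0.0047). Csrp1, a LIM domain protein, had means of 2.18 and 0.280 FPKM (log2 fold change 1.31, limma adjusted p = 0.00027). Selenow, a small selenoprotein, was abundant and not called, with means of 764.4 and 776.8 FPKM (log2 fold change -0.02, 95% interval from -0.51 to 0.48). Csrp1, like Slc39a4, passed the filter on low values only through its Bnc1tr/tr level, and Ndrg1 was under it.

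Fbxo43, the zinc-binding inhibitor that holds the egg at its second meiotic arrest, had means of 43.0 and 27.2 FPKM (log2 fold change 0.67, limma adjusted p = 0.031), a call lost in 10 of 18 alternatives, upper-quartile and median-ratio scaling among them. Astl, the zinc protease that cleaves the egg coat after fertilization, had means of 60.6 and 61.1 FPKM and was not called (log2 fold change 0.07). Of the channels, sensors and chaperones, Tmem163, a zinc efflux transporter, was called higher although its libraries overlapped (log2 fold change 0.96, limma adjusted p = 0.045), and this call was lost in 12 of 17 alternatives. The lysosomal channel Mcoln1 had a log2 fold change of 0.67 with an adjusted p of 0.14 by limma.

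**Figure D4:**
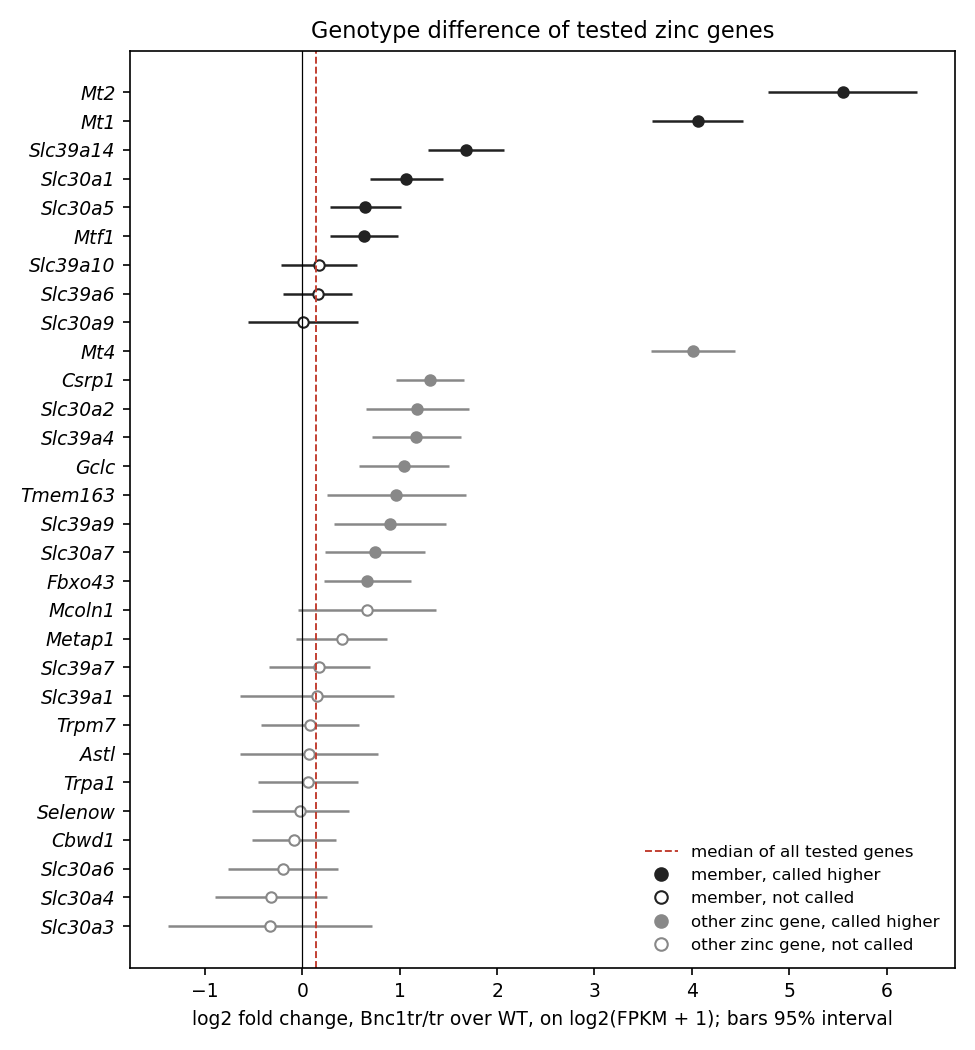
Log2 fold change, Bnc1tr/tr over WT on log2(FPKM + 1), with its 95% limma interval (x axis) for the 9 tested members (black) and the 21 other tested zinc genes (grey); filled points were called higher and open points were not called. The dashed line is the median of all tested genes (0.15), and Mt1, Mt2 and Mt4 stand well to the right of the other genes.

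Transcripts of other cells were present in some libraries, and such levels cannot tell fewer cells of a type from less RNA per cell. The summed FPKM of 6 immune markers was 42.51 and 64.04 in Bnc1tr/tr replicates 1 and 2, 0.96 in Bnc1tr/tr replicate 3, and between 1.39 and 2.94 in the WT libraries, and 5 of the 6 markers, Ptprc among them, were at 0 in Bnc1tr/tr replicate 3 and in every WT library. In Bnc1tr/tr replicate 3 Mt1 was at 94.63 and Mt2 at 71.16 FPKM. Compared with WT on its own, a comparison chosen after seeing the data in which the lone library is assumed to vary like the WT group, that library gave log2 fold changes of 3.86 for Mt1 and 5.64 for Mt2 (limma adjusted p = 0.0028 and 0.0035). Of the 10 members, 2 were called higher in that comparison, Mt1 and Mt2, against 7.1% of the genes tested there, with Slc30a1 at an adjusted p of 0.053 by limma and Slc39a14 under the filter.

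Blood markers summed to 10.13 FPKM in Bnc1tr/tr replicate 2, 1.04 in Bnc1tr/tr replicate 1 and 0 in the other libraries. The marker sums of other cell types differed by genotype in every library. Surface epithelium markers summed to between 8.65 and 32.3 FPKM in Bnc1tr/tr and between 0.64 and 1.71 FPKM in WT. Most of the Bnc1tr/tr sum was the keratin gene Krt8 (6.05 to 22.79 FPKM). Upk3b was at 1.4 to 3.36 FPKM in Bnc1tr/tr and 0.37 to 0.66 in WT, and Krt19 was not listed. Theca and stroma markers summed to between 6.00 and 9.81 FPKM in Bnc1tr/tr and between 1.69 and 2.2 FPKM in WT. Most of the theca and stroma sum was Dcn (4.93 to 6.95 FPKM in Bnc1tr/tr and 1.36 to 2.02 in WT). Lum was above 0 only in Bnc1tr/tr libraries, Star and Cyp17a1 overlapped between genotypes, and Col1a1 was at or near 0 throughout. Granulosa and cumulus markers summed to between 43.3 and 60.4 FPKM in Bnc1tr/tr and between 22.7 and 39.9 FPKM in WT, and most of this sum was Cyp19a1. Foxl2 was at 0 in every library except WT replicate 1, at 0.03 FPKM. The granulosa markers did not move together: Fshr was at 4.54, 5.83 and 5.37 FPKM against 0.31, 0.74 and 0 FPKM, while Inha was at 0.18, 1.81 and 0.09 FPKM against 6.78, 3.45 and 0.04 FPKM. Endothelium markers summed to between 3.69 and 6.67 FPKM in Bnc1tr/tr and between 7.62 and 10.04 FPKM in WT, which was mostly Pecam1, whereas Kdr was higher in every Bnc1tr/tr library (0.53 to 1.54 FPKM) than in any WT library (0.07 to 0.12 FPKM) and Cdh5 was at or near 0. Mt1, Mt2 and Mt4, like the surface epithelium, theca and granulosa sums, were higher in every Bnc1tr/tr library than in any WT library. Within the Bnc1tr/tr libraries, Mt4 and the surface epithelium sum were highest in replicate 1. Mt1, Mt2 and the theca, granulosa, immune and blood sums were highest in replicate 2. An order of so few libraries cannot show a source. The part of those cells in the metallothionein levels was not tested.

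**Figure D5:**
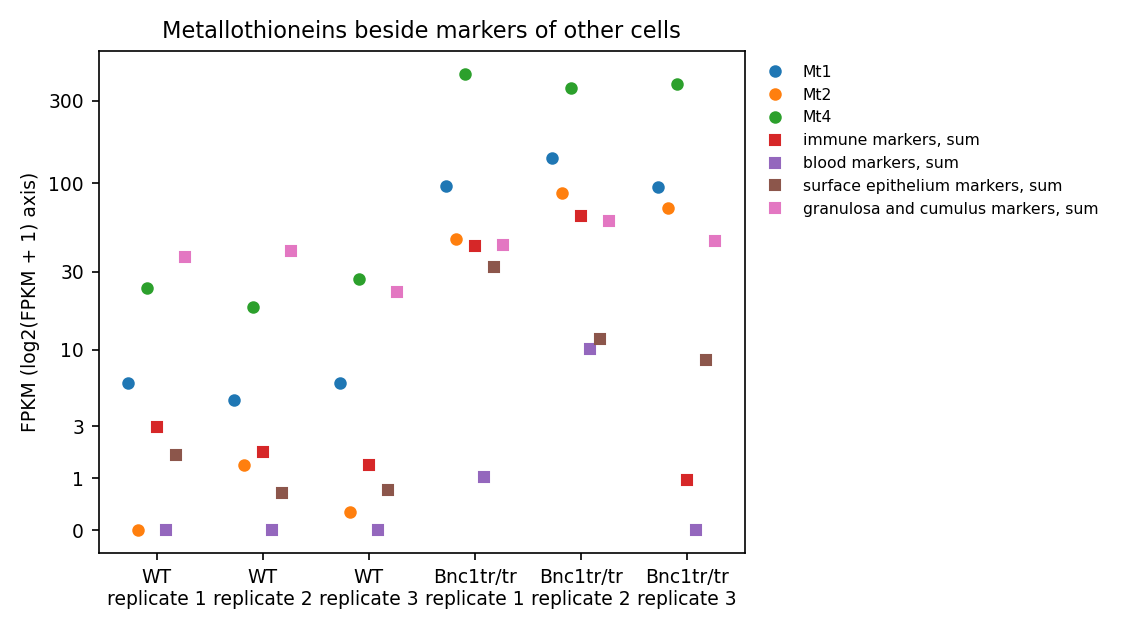
FPKM of Mt1, Mt2 and Mt4 (circles) and the summed FPKM of immune, blood, surface epithelium and granulosa markers (squares) in each of the 6 libraries (x axis), on a log2(FPKM + 1) axis. In Bnc1tr/tr replicate 3 the immune and blood sums are at 0.96 and 0 FPKM, the surface epithelium and granulosa sums at 8.65 and 45.9 FPKM, and Mt1, Mt2 and Mt4 at 94.63, 71.16 and 377.93 FPKM.

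Finally, calls were set beside the number of metal response elements in the promoter window. Of the tested genes whose richest window held no match, 24.7% were called higher. The share was 23.0% with 1 match, 21.3% with 2 and 22.9% with 3. Of the 41 with 4 or more, Mt2 among them, 24.4% were called higher, beside 24.1% of all tested genes. Tested genes without a promoter window are left out of the shares by number of matches.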

How the data were processed

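RNA of 6 germinal vesicle oocyte libraries (3 Bnc1tr/tr, 3 WT) was analysed. The deposited values are FPKM per gene, which the authors made before deposit; the submitters' processing notes name HISAT2 2.0.4, Bowtie2 2.2.5, RSEM 1.2.12 and GRCm38.p6. FPKM keeps no counts, so no count model was used. FPKM were transformed as log2(FPKM + 1), the 10560 of 17577 genes averaging 1 FPKM or more over 6 libraries were fitted with limma 3.58.1 in R 4.3.3, and p-values were adjusted by Benjamini-Hochberg over all tested genes. The pseudocount understates fold changes of low genes. A call needed an adjusted p below 0.05 and a log2 fold change beyond 0.5 in either direction, thresholds named by the study. The fit was tested on simulated data. Depth was estimated from steps of low FPKM of single-transcript genes and used only for the value of 3 fragments, which covers counting error only. Groups came from the genotype label. An exact two-sided permutation test of 3 against 3 cannot go below p = 0.1. Named were all 10 members, other zinc genes called or with a mean of at least 10 FPKM, Bnc1, and defining markers. Further genes were named after their values were seen. The members and lists were chosen with earlier results of these data known. Alternatives covered the pseudocount, filter, scaling, replicate block, limma settings, fold threshold and left-out libraries. The marker Amh was not analysed here. One result is not reported here.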

Additional observations from a re-analysis of the deposited data

How the results depend on the processing

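Mt1, Mt2 and Mt4 were called higher under each of the 18 alternatives run for them, and Slc39a14 under each of the 15 in which it was tested. Of 157 member values under the alternatives, 133 kept direction and call, 13 lost the call and 11 turned direction. With a minimum mean of 5 FPKM, 4 members were called higher, and Slc39a14 and Slc30a1 were under the filter. With a log2 threshold of 1 the count was also 4, and Slc30a5 and Mtf1 were not called. The count of members called higher was 4 with upper-quartile, median-ratio or quantile scaling, where Slc30a5 and Mtf1 were not called, 5 to 6 with 1 library left out, and 2 with Bnc1tr/tr replicate 3 as the only mutant library, a comparison chosen after seeing the data. There the other zinc genes called higher were 1 of 9 and Bnc1 was at -1.13 (limma adjusted p = 0.059). The latter count was 3 with a minimum mean of 5 FPKM, 5 with quantile normalization, 5 with a log2 threshold of 1, at which Bnc1 (-0.89) was not called, and 5 to 8 with 1 library left out. Other zinc genes called lower were 0 to 1. In all tested genes, quantile normalization gave 1637 higher and 1877 lower calls, upper-quartile 1850 and 1794, and median-ratio 2034 and 1395, against 2547 and 811. A minimum mean of 5 FPKM gave 1413 and 633 and a threshold of 1 gave 1418 and 259.

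Direction turned only for genes that were not called: with upper-quartile scaling Slc39a6 (-0.11), Slc39a10 (-0.10), Slc30a9 (-0.16) and Astl (-0.20), with median-ratio scaling Slc39a6 (-0.025), Slc39a10 (-0.010), Slc30a9 (-0.11) and Astl (-0.12), and with quantile normalization Slc30a9 (-0.55), Selenow (0.068) and Astl (-0.031). With 1 library left out, Slc30a9 ranged from -0.20 to 0.22, Astl from -0.32 to 0.27, Selenow from -0.18 to 0.16 and Slc30a3 from -0.91 to 0.058. The cause was not tested.

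Same-numbered libraries of the genotypes had deviations correlated at 0.278, -0.0344 and 0.124, and libraries of other numbers between -0.254 and 0.161. With 3 libraries per genotype these values cannot tell whether the numbers pair the libraries. A fit with the replicate number as block called 6 members and 9 other zinc genes higher, Bnc1 was at -0.89 (limma adjusted p = 0.011), and no call of a named gene changed.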
